A study of Aethionema arabicum with 12 samples.

Results

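*Aethionema arabicum* is an annual crucifer with germination that depends on accession and light. Its imbibed seeds were compared here in the 1 state of this series in which germination is held back: seeds of the Cyprus accession (CYP) kept under white light. The 3 CYP light libraries were set against the mean of the 3 other groups, all of which can germinate, in 12 libraries altogether. The groups were CYP seeds after 23 h of white light at 100 µmol m-2 s-1 (CYP light), CYP seeds after 23 h of darkness (CYP dark), and seeds of the Turkish accession ES1020 under the same light (TUR light) or darkness (TUR dark). Each group held 3 libraries. Seeds were intact when they were frozen, and poly(A) RNA of whole seeds was sequenced, so that no group held germinated seeds. A gene was called at a Benjamini-Hochberg adjusted p under 0.05 in edgeR's quasi-likelihood test on read counts, and was counted as a state gene when it was called and its 3 CYP light values lay all above or all below the 9 other libraries. Of 15671 genes tested, 2884 were state genes, 1311 higher (8.37%) and 1573 lower (10%) in CYP light. Values are CPM, the read count scaled to library size with TMM factors, and the fold changes are log2 values of CYP light over the mean of the other groups unless another comparison is named.

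Germination is set largely by the balance of gibberellin, which releases embryo growth, and abscisic acid (ABA), which holds the seed dormant and keeps its reserve and desiccation programme in place. Light perceived by phytochromes shifts this balance, in Arabidopsis seeds toward germination, and white light is known to block germination in the CYP accession, while TUR germinates under it. Growth of the embryo then needs wall-loosening enzymes such as expansins and xyloglucan enzymes, and, with cell division, the DNA replication machinery. Roles given below are those known from Arabidopsis thaliana, whose matching gene (TAIR10) the deposited table names for each A. arabicum model. Nothing in the sources used here says whether the 3 libraries of a group came from separate seed lots or plants, so the p-values measure the spread between these libraries, which may be technical.

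Libraries held 7099578 to 13953792 counts, and 3 counts in them stand for 0.215 to 0.423 CPM. Libraries of 1 group correlated across genes at 0.993 to 0.9945 in CYP light, 0.9843 to 0.9937 in CYP dark, 0.9918 to 0.9944 in TUR light and 0.99 to 0.9937 in TUR dark (Pearson's r on log2 CPM). The first principal component (62.29% of the variance) parted the accessions, with scores of 32.87 to 51.31 in CYP and -48.06 to -34.5 in TUR libraries. The second (21.29%) parted dark libraries (13.29 to 36.16) from light ones (-27.68 to -20.37). Both TUR groups enter the mean that CYP light is set against, so accession differences enter that contrast. On the third, with 4.857% of the variance, replicate 3 of CYP dark had a score far from the rest (30.2). Without it, the rule gave 1721 higher and 1910 lower state genes, against 1311 and 1573 with all libraries. Of the latter, 1309 and 1571 were kept. This was largely fixed in advance, since leaving out 1 of the other libraries only loosens the no-overlap rule.

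In the comparison with the mean of the other groups, 4003 genes (25.5%) were called higher and 4085 (26.1%) lower in CYP light, and the median log2 fold change of all genes tested was -0.002. Because the background is this wide, a list of genes is described below by its counts beside these shares. The state rule keeps genes that differ from every library, yet it does not ask for a large distance. In the median state gene that was higher, the lowest CYP light library was 1.099-fold the highest of the other libraries. In the median state gene that was lower, the gap was 1.168-fold. At the edge of the rule, bZIP60 (AA71G00021) was inside, with a lowest CYP light value of 29.747 CPM and a highest other value of 29.743 CPM, and SCARECROW-like 8 (AA55G00006) was inside among the lower genes with a highest CYP light value of 20.903 CPM and a lowest other value of 20.908 CPM. A WD40 repeat gene (AA6G00292; lowest CYP light value 77.838 CPM, highest other value 77.85 CPM) and calcium-dependent protein kinase 6 (AA54G00270; highest CYP light value 19.014 CPM, lowest other value 19.013 CPM) lay just outside.

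The lower side of the state was the deeper one. At least 2-fold lower than every other group were 387 state genes, and at least 2-fold higher than every other group were 68. A clear gap of 1.5-fold or more between libraries held for 345 lower and 88 higher genes, and one of 2-fold or more for 144 lower and 17 higher genes. The median log2 fold change was -0.90 among the lower state genes and 0.65 among the higher ones, values that the rule itself shapes. State genes resembled the other tested genes in length (median 1947 bases for higher and 2146 bases for lower genes, against 2076 bases for all tested) and in having an Arabidopsis match (96.11% and 96.69%, against 95.43%).

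State genes were sorted by which other group was nearest to CYP light. Among the higher genes, CYP dark had the smallest fold change for 843, TUR light for 445 and TUR dark for 23. Among the lower genes the numbers were 985, 556 and 32. Set against each group alone, in comparisons that share the CYP light libraries, 1664 genes (10.6%) were called higher and 2248 (14.3%) lower than in CYP dark, 3906 (24.9%) higher and 4359 (27.8%) lower than in TUR light, and 4479 (28.6%) higher and 4554 (29.1%) lower than in TUR dark. When a call against each of the 3 groups was required in place of the call against their mean, 737 higher and 1115 lower state genes were left. Values against the 3 groups are given side by side for the genes described most fully below. Of 92 named state genes, 13 were not called against at least 1 group alone, which is stated where such a gene is described.

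**Figure D1:**
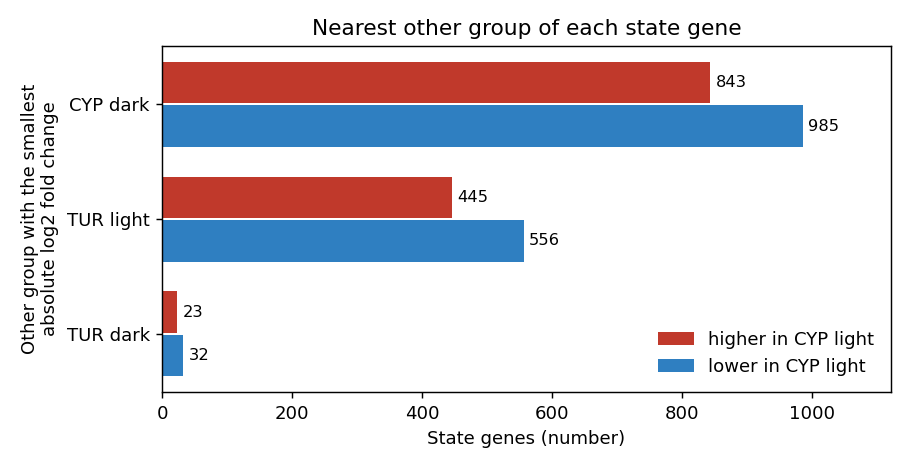
State genes by the other group with the smallest absolute log2 fold change to CYP light; bars count genes, upper bar of each pair higher and lower bar lower in CYP light. CYP dark is nearest for 843 higher and 985 lower genes, TUR light for 445 and 556, and TUR dark for 23 and 32.

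Genes that loosen and rebuild the cell wall were lower in CYP light as a group. Of 14 expansin and xyloglucan enzyme genes tested, 12 were called lower and 0 higher in edgeR's test (0 higher at an unadjusted p under 0.05 and 0 in DESeq2), 9 of them as state genes, with a median log2 fold change of -1.53. In RNA of whole seeds, fewer cells of a type and less RNA per cell cannot be told apart. The remaining genes, EXPA3 and EXPA20, were not called, at -0.10 (adjusted p = 0.429) and -0.22 (adjusted p = 0.114). EXPA2 (AA35G00022), an expansin of germinating Arabidopsis seeds, had 9.39, 11 and 10.3 CPM in CYP light, against 90.4, 76.3 and 86.6 CPM in CYP dark, 47, 85.3 and 32.8 CPM in TUR light and 269, 251 and 233 CPM in TUR dark. All 3 CYP light libraries were far below the others, and the lowest other library was 2.97-fold the highest CYP light library. Its log2 fold change was -3.35 (SE 0.22, adjusted p = 6.38e-10), with -3.04 against CYP dark, -2.40 against TUR light and -4.62 against TUR dark. The xyloglucan endotransglucosylase XTH4 (AA110G00001) averaged 21.9 ± 0.74 CPM in CYP light, against 45.9 ± 4.01 CPM in CYP dark, 91.7 ± 7.03 CPM in TUR light and 133 ± 17.62 CPM in TUR dark (SD, n = 3 each), a log2 fold change of -1.91 (SE 0.10, adjusted p = 2.58e-11). XTH9 (AA32G00336) had a log2 fold change of -1.88 (SE 0.14, adjusted p = 4.59e-09), with -0.75 against CYP dark, -2.23 against TUR light and -2.67 against TUR dark. XTH31 (AA72G00007), with 8 reads in all of CYP light, had -2.85 (SE 0.62, adjusted p = 0.000782), and its difference from CYP dark alone was not called (adjusted p = 0.11).

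Other wall genes, grouped by words in their Arabidopsis descriptions, gave counts on the same side. Among 95 pectin enzyme genes 55 were called lower and 7 higher (median -0.62), and among 20 arabinogalactan genes 15 were called lower and 1 higher (median -1.15). Of 73 extensin and proline-rich genes, 31 were lower and 12 higher (median -0.17). In 4 endo-mannanases, enzymes that weaken the endosperm, 2 were called lower and 0 higher in edgeR's test (0 higher at an unadjusted p under 0.05 and 0 in DESeq2). Their summed level in CYP light, 221.8 to 250.7 CPM, was like that in TUR light, 219.3 to 248.9 CPM. It was 322.7 to 325.8 CPM in CYP dark and 287.5 to 306.6 CPM in TUR dark. MAN5 (AA228G00014) was a state gene with a log2 fold change of -0.62 (SE 0.10, adjusted p = 5.36e-05), and MAN7 (AA8G00079), whose Arabidopsis match acts in germination, had -0.24 (SE 0.07, adjusted p = 0.0121). The call of MAN7 was lost without CYP light replicate 1 (-0.21, adjusted p = 0.0775), without CYP light replicate 3 (-0.18, adjusted p = 0.114) and with the 9 other libraries as 1 group (-0.26, adjusted p = 0.245).

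The largest falls among state genes with a described function also held several proteins of the wall and the cell surface. Early nodulin-like protein 8 (AA53G01281), a cell-surface protein, had 4.06, 4.54 and 3.95 CPM in CYP light, against 68.4, 64.7 and 64.1 CPM in CYP dark, 30.2, 26.8 and 24.2 CPM in TUR light and 88.1, 85.8 and 72.9 CPM in TUR dark. The CYP light libraries were tightly grouped below all others, by 5.35-fold at the nearest point. The log2 fold change was -3.66 (SE 0.12, adjusted p = 1.98e-14). Fasciclin-like arabinogalactan protein 2 (AA398G00001), a secreted wall protein, averaged 3.72 ± 0.507 CPM in CYP light, against 13.2 ± 4.52 CPM in CYP dark, 62.8 ± 14.5 CPM in TUR light and 133 ± 16.8 CPM in TUR dark (SD, n = 3 each), and its nearest group was CYP dark, at -1.81. Beta-xylosidase 1 (AA58G00011), which trims wall polysaccharides, averaged 1.3 ± 0.208 CPM in CYP light, against 27.1 ± 5.21 CPM in CYP dark, 3.88 ± 1.42 CPM in TUR light and 22 ± 7.15 CPM in TUR dark (SD, n = 3 each). In this gene both light groups were low and the CYP light libraries lay below TUR light, with a log2 fold change of -1.51. Methylesterase PCR A (AA65G00206), a pectin enzyme, had a log2 fold change of -3.40 (SE 0.35, adjusted p = 2.53e-07), with -1.89 against CYP dark, -2.91 against TUR light and -5.38 against TUR dark.

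The 2 largest gaps among the named genes belonged to glycosyl hydrolase models that match 1 Arabidopsis locus, the beta-glucosidase PYK10 of endoplasmic reticulum bodies. AA19G00337 had 2.78, 2.74 and 3.8 CPM in CYP light, against 31.5, 29.9 and 37.5 CPM in CYP dark, 34.5, 45 and 22.4 CPM in TUR light and 68.8, 74.4 and 77.7 CPM in TUR dark. AA19G00338 averaged 1.75 ± 0.277 CPM in CYP light, against 15.7 ± 1.21 CPM in CYP dark, 17.8 ± 4.89 CPM in TUR light and 41.5 ± 3.24 CPM in TUR dark (SD, n = 3 each). The lowest other library was 5.88-fold and 6.03-fold the highest CYP light library. Their numbers follow each other, so reads of 1 gene may be split between them, and they are not independent. The log2 fold change was -3.75 for an amino acid transporter (AA229G00001), -3.62 for a bZIP factor (AA61G00245), -3.59 for an O-methyltransferase (AA53G01380) and -3.58 for the gene described as AtL5 (AA21G00485).

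Genes of DNA replication were lower in CYP light. Of 29 replication and cell cycle genes tested, 21 were called lower and 2 higher, 20 and 1 of them as state genes, with a median log2 fold change of -0.93. The small subunit of ribonucleotide reductase, TSO2 (AA53G00911), which makes deoxynucleotides, had 27.5, 28.4 and 33.7 CPM in CYP light, against 104, 99.8 and 112 CPM in CYP dark, 106, 112 and 104 CPM in TUR light and 184, 188 and 152 CPM in TUR dark. No library of the other groups came near the CYP light values, the nearest being 2.96-fold higher. Its log2 fold change was -2.07 (SE 0.10, adjusted p = 6.28e-12), with -1.81 (adjusted p = 7.06e-10) against CYP dark, -1.84 (1.49e-10) against TUR light and -2.54 (1.13e-12) against TUR dark. The replication licensing factor CDT1A (AA32G00601) averaged 9.02 ± 1.14 CPM in CYP light, against 25.7 ± 1.89 CPM in CYP dark, 26.6 ± 3.87 CPM in TUR light and 37.7 ± 3.58 CPM in TUR dark (SD, n = 3 each), a log2 fold change of -1.71 (SE 0.12, adjusted p = 1.05e-09). The models of all MCM subunits tested (MCM2 to MCM7), which form the replicative helicase, were state genes, from -0.82 in MCM3 (AA56G00052) to -1.48 in MCM4 (AA123G00008). MCM5 (AA224G00011) averaged 36.6 CPM in CYP light, against 80.03 CPM in CYP dark, 83.9 CPM in TUR light and 117 CPM in TUR dark. PCNA2 (AA32G00739), the sliding clamp, averaged 53.9 CPM in CYP light, against 80.5 CPM in CYP dark, 114 CPM in TUR light and 131 CPM in TUR dark. MCM3, MCM4, CDC45 and CDT1A are each matched by more than 1 model, some with consecutive numbers, so the counts of models overstate the number of genes.

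Cyclins and their kinases had values nearer 0. CYCD5;1 (AA30G00273), CYCD2;1 (AA46G00137) and CYCA2;3 (AA37G00175), named after their values were seen, had log2 fold changes of -0.67, -0.59 and -0.38. The mitotic cyclin CYCB1;1 (AA30G00259) was the 1 state gene of the list that was higher, at 0.44 (SE 0.10, adjusted p = 0.00136). When a call against each other group was required, 18 lower and 0 higher state genes of the list were left. CYCB1;1 was thus not called against at least 1 group alone. The kinase models CDKA;1 (AA75G00030) and CDKB2;1 (AA31G00309) were not called, at -0.12 (adjusted p = 0.487) and -0.09 (adjusted p = 0.59). In the histone family 20 of 35 genes were called lower and 4 higher (median -0.38).

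**Figure D2:**
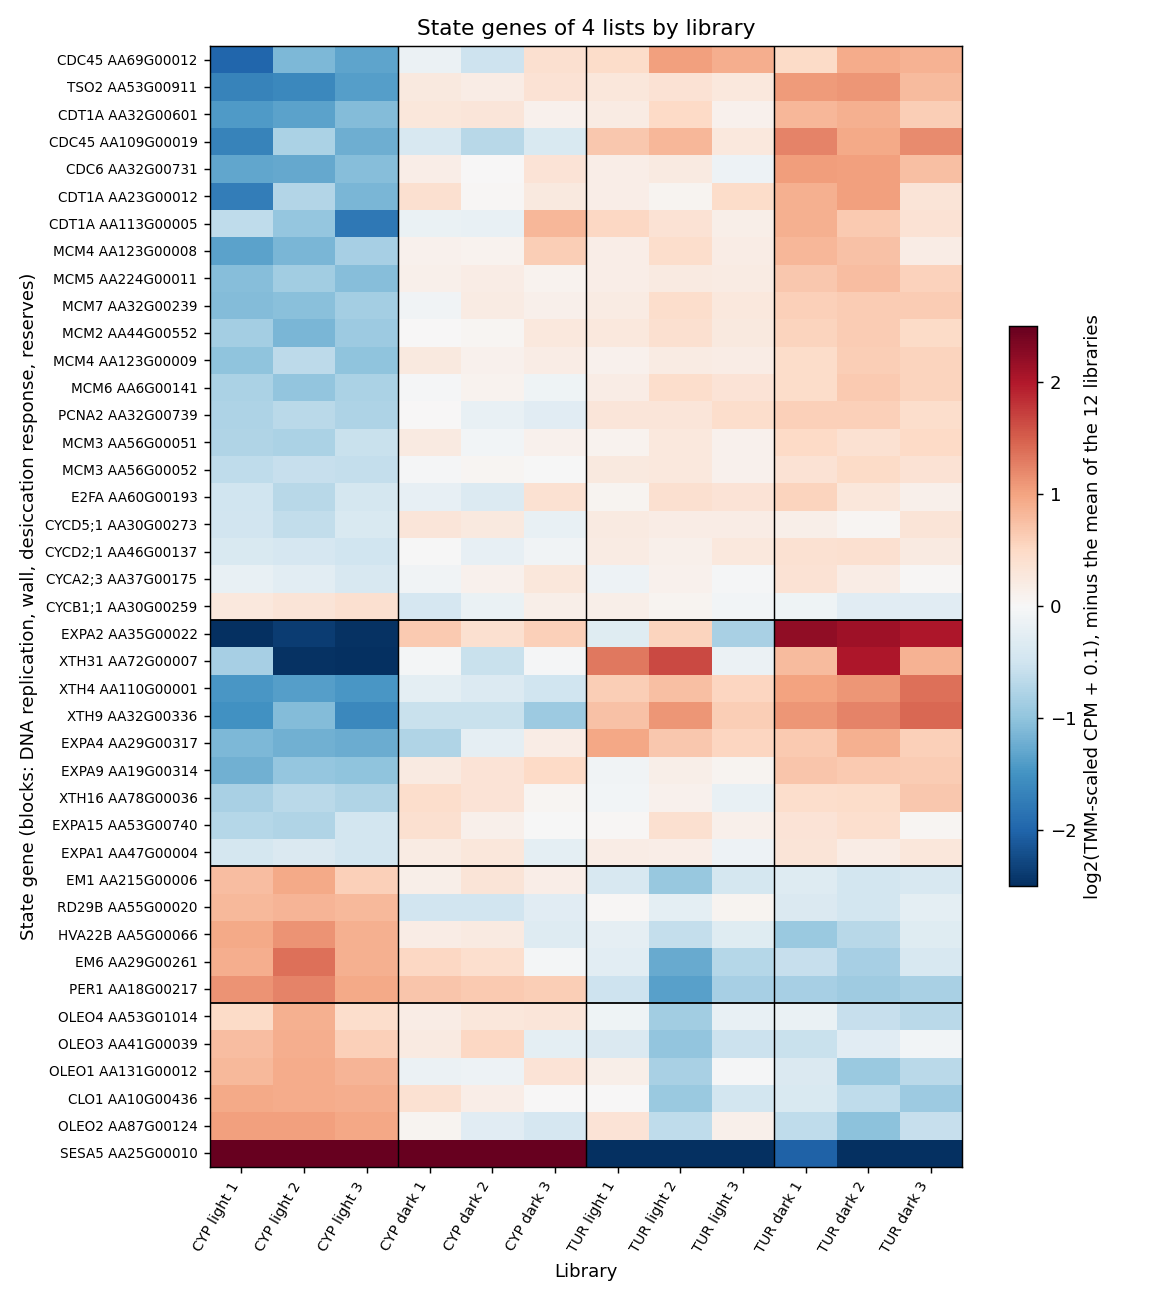
Log2(CPM + 0.1) of the 41 state genes of 4 lists, each row centred on its mean over the 12 libraries; CYP light libraries are the 3 columns at the left, colours stop at 2.5 either way, and black lines part the lists and groups. Replication and wall genes are low in the CYP light columns, desiccation and reserve genes are high there, and SESA5 is high in both CYP groups.

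Gibberellin genes moved in both directions. The gibberellin 2-oxidase GA2ox2 (AA18G00108), which inactivates the active hormone, had 14.5, 11.7 and 16.4 CPM in CYP light, against 0.399, 0 and 0.152 CPM in CYP dark, 5.92, 5.48 and 4.38 CPM in TUR light and 0.307, 0.283 and 0.155 CPM in TUR dark. All CYP light libraries were above TUR light, and both dark groups were near 0. The log2 fold change of 4.44 (SE 0.21, adjusted p = 9.29e-12) was the largest of the genes of hormone pathways among the named rises, with 6.08 (adjusted p = 1.02e-09) against CYP dark, 1.44 (8.29e-06) against TUR light and 5.79 (4.23e-11) against TUR dark. A second model of the same Arabidopsis gene, AA54G00411, behaved differently, with 12.3, 10.8 and 8.7 CPM in CYP light, against 38.3, 32.5 and 37.7 CPM in CYP dark, 2.85, 1.5 and 2.72 CPM in TUR light and 1.54, 3.3 and 1.86 CPM in TUR dark. It was highest in CYP dark, so it was no state gene, and the log2 fold change of 0.87 (SE 0.17, adjusted p = 0.000249) averages -1.77 against CYP dark, 2.1 against TUR light and 2.27 against TUR dark.

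Of the 7 gibberellin synthesis genes tested, 4 were called higher and 1 lower (median 0.75). GA3ox2 (AA31G00895), which completes active gibberellin, had 22.4, 24.1 and 17.2 CPM in CYP light, against 5.79, 6.22 and 6.23 CPM in CYP dark, 10.2, 8.35 and 10.1 CPM in TUR light and 7.15, 4.33 and 6.28 CPM in TUR dark. The CYP light libraries lay above all others, and the log2 fold change was 1.59 (SE 0.13, adjusted p = 8.44e-09), with 1.81 (adjusted p = 5.6e-07) against CYP dark, 1.14 (1.1e-05) against TUR light and 1.83 (4.04e-08) against TUR dark. GA3ox1 (AA37G00176), which catalyses the same step, had 6.68, 8.3 and 7.16 CPM in CYP light, against 10.3, 9.81 and 12.6 CPM in CYP dark, 43.3, 42.1 and 41.8 CPM in TUR light and 36.6, 28.8 and 31.4 CPM in TUR dark. Here both CYP groups were low, CYP light just under CYP dark, and the log2 fold change was -1.74 (SE 0.12, adjusted p = 6.91e-10), with -0.55 (adjusted p = 0.00952) against CYP dark, -2.52 (1.82e-11) against TUR light and -2.13 (1.03e-10) against TUR dark. Scaled to gene length, GA3ox2 stood at 11.9 CPM per kb in CYP light, against 3.39 CPM per kb in CYP dark, 5.33 CPM per kb in TUR light and 3.31 CPM per kb in TUR dark. GA3ox1 stood at 4.67 CPM per kb in CYP light, against 6.9 CPM per kb in CYP dark, 26.8 CPM per kb in TUR light and 20.4 CPM per kb in TUR dark. GA3ox2 was thus the more abundant of the pair per length in CYP light, and GA3ox1 in each other group. KAO2 (AA32G00528) and GA3 (AA12G00130), which act earlier in the pathway, had log2 fold changes of 0.82 (SE 0.08, adjusted p = 1.08e-07) and 0.75 (SE 0.09, adjusted p = 1.86e-06). GA3 was not called against CYP dark alone (0.26, adjusted p = 0.117). GA20ox2 (AA55G00064) was called higher, at 1.96 (SE 0.18, adjusted p = 5.23e-08), but averaged 9.78 CPM in CYP light, against 16 CPM in CYP dark, 0.518 CPM in TUR light and 1.72 CPM in TUR dark, so that CYP dark lay above CYP light. It was not called with the 9 other libraries fitted as 1 group (0.74, adjusted p = 0.597).

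Genes of gibberellin perception were divided. Of 6 receptor, DELLA and SLY1 genes, 2 were called higher and 1 lower (median -0.05). The receptor GID1A (AA10G00111) averaged 72.7 ± 5.43 CPM in CYP light, against 56.1 ± 8.97 CPM in CYP dark, 33.5 ± 2.59 CPM in TUR light and 26 ± 1.85 CPM in TUR dark (SD, n = 3 each), a log2 fold change of 0.99 (SE 0.09, adjusted p = 3.27e-08). The DELLA repressor GAI (AA14G00090) was lower, at -1.22 (SE 0.15, adjusted p = 1.8e-06). RGL2 (AA10G00264) and RGA (AA53G00639), DELLA proteins that hold back germination and growth, were not called, at 0.05 (SE 0.08, adjusted p = 0.599) and -0.16 (SE 0.10, adjusted p = 0.198). GASA4 (AA40G00565), a gibberellin-regulated peptide gene, had 33.6, 39.1 and 36.4 CPM in CYP light, against 166, 155 and 100.3 CPM in CYP dark, 286, 299 and 212 CPM in TUR light and 588, 481 and 629 CPM in TUR dark. CYP light was lowest by 2.56-fold at the nearest point, and the log2 fold change was -2.93 (SE 0.16, adjusted p = 4.82e-11). Its relative GASA3 (AA9G00183) went the other way, at 1.22 (SE 0.11, adjusted p = 3.66e-08).

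**Figure D3:**
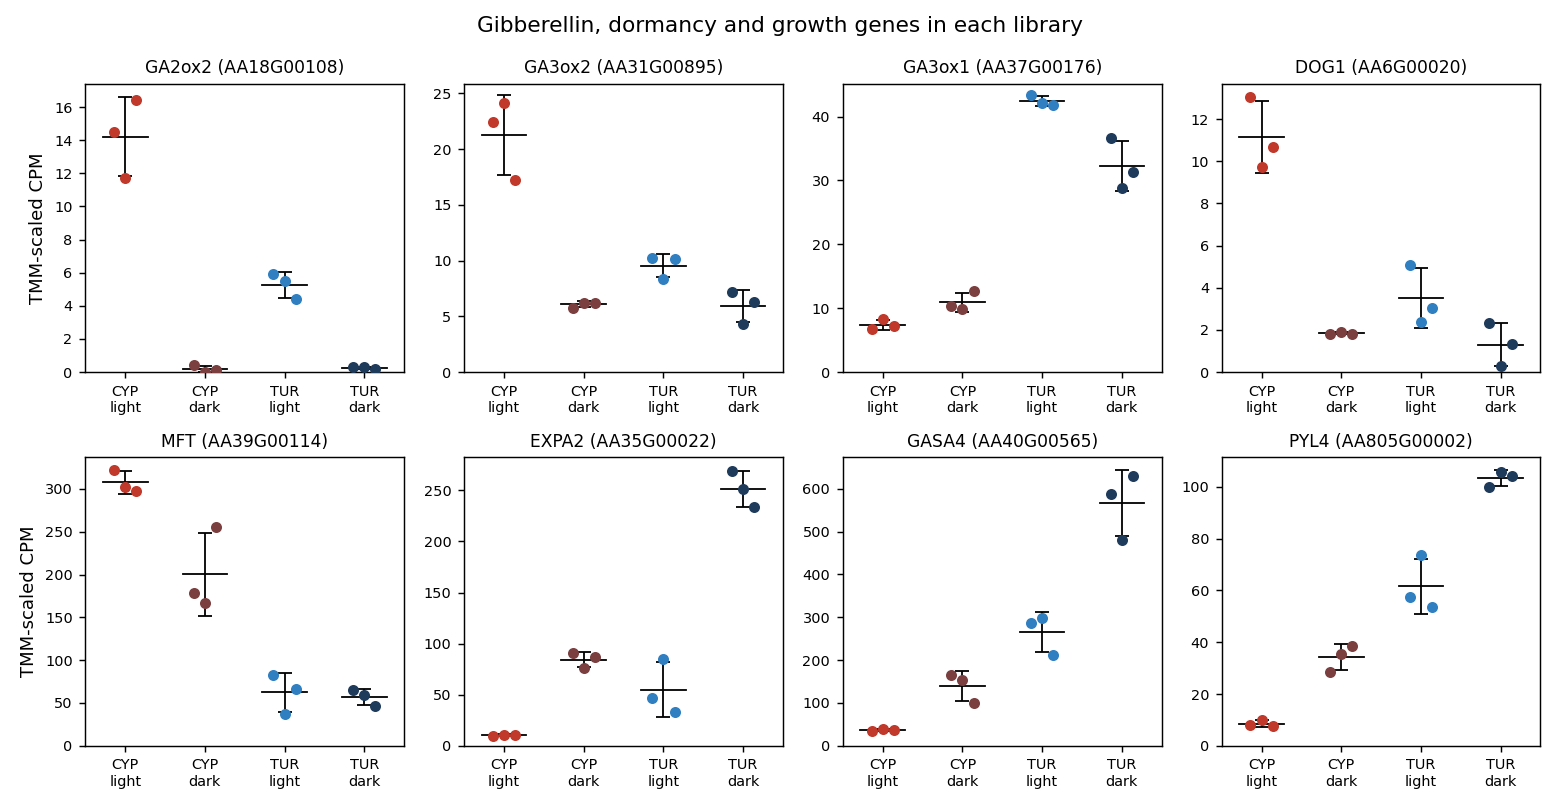
CPM of 8 genes in every library (points, linear axes from 0), with the mean (line) and SD (bars) of each group of 3. GA2ox2, GA3ox2, DOG1 and MFT are highest in the CYP light libraries, and GA3ox1, EXPA2, GASA4 and PYL4 are lowest there.

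The dormancy genes DOG1, DOGL4 and MFT were higher in CYP light. DOG1 (AA6G00020), a main quantitative regulator of dormancy, had 13.1, 9.76 and 10.7 CPM in CYP light, against 1.8, 1.91 and 1.82 CPM in CYP dark, 5.1, 2.37 and 3.02 CPM in TUR light and 2.31, 0.283 and 1.32 CPM in TUR dark. All CYP light libraries lay above the others, and TUR light replicate 1 came nearest. The log2 fold change was 2.42 (SE 0.24, adjusted p = 1.22e-07), with 2.59 (adjusted p = 2.09e-05) against CYP dark, 1.63 (0.000138) against TUR light and 3.03 (4.34e-07) against TUR dark. The DOG1-like gene DOGL4 (AA57G00147), linked to reserve gene expression, averaged 39.7 ± 4.69 CPM in CYP light, against 15.9 ± 3.4 CPM in CYP dark, 8.99 ± 1.71 CPM in TUR light and 7.17 ± 0.54 CPM in TUR dark (SD, n = 3 each), a log2 fold change of 1.96 (SE 0.11, adjusted p = 1.05e-10). MFT (AA39G00114), which acts in the ABA control of germination, had 323, 303 and 297 CPM in CYP light, against 179, 166 and 256 CPM in CYP dark, 82.7, 37.5 and 66.7 CPM in TUR light and 65, 59.6 and 46 CPM in TUR dark. It was high in both CYP groups and highest in CYP light, with 0.62 (adjusted p = 0.0283) against CYP dark, 2.29 (5.18e-08) against TUR light and 2.44 (1.6e-08) against TUR dark. The bHLH factor SPT (AA30G00231), a repressor of germination, was low instead, at 2.1 ± 0.402 CPM in CYP light, against 7.92 ± 0.859 CPM in CYP dark, 11 ± 3.87 CPM in TUR light and 18.3 ± 0.381 CPM in TUR dark (SD, n = 3 each), a log2 fold change of -2.46 (SE 0.21, adjusted p = 1.88e-08). Over the whole list of 16 dormancy and germination regulators, 6 were called higher (37.5%) and 5 lower (31.25%), with a median of 0.08. State genes of the list were 5 higher (31.25%) and 2 lower (12.5%).

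SOM and PIF1, also on the list, were no state genes. SOM (AA7G00098), which acts below PIF1 in light-controlled germination, averaged 612 CPM in CYP light, against 652 CPM in CYP dark, 686 CPM in TUR light and 728 CPM in TUR dark and was not called (adjusted p = 0.245). Of 2 models of PIF1, the phytochrome-interacting repressor of germination, AA102G00037 was called lower at -0.91 (SE 0.16, adjusted p = 0.000109), with 0.04 against CYP dark, -1.45 against TUR light and -1.32 against TUR dark, and not called with the 9 other libraries as 1 group (adjusted p = 0.076). The model AA33G00286 had 0.29 (SE 0.11, adjusted p = 0.0376), and its call was lost without TUR dark replicate 2 (0.27, adjusted p = 0.054), without CYP light replicate 1 (0.31, adjusted p = 0.0761), without CYP light replicate 3 (0.24, adjusted p = 0.143) and with the 9 other libraries as 1 group (0.24, adjusted p = 0.459).

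Of 6 ABA synthesis genes, 3 were called higher and 0 lower in edgeR's test (0 lower at an unadjusted p under 0.05 and 0 in DESeq2), with a median of 0.46. With limma on the deposited RPKM the direction turned, with 0 called higher and 4 lower (median -0.36). The 3 genes called higher on the counts were ABA1 (AA8G00025, zeaxanthin epoxidase), ABA3 (AA37G00095, which activates the last oxidase) and AAO3 (AA32G00943, that oxidase). Their log2 fold changes in edgeR's test were 0.48 (SE 0.09, adjusted p = 0.000234), 0.60 (SE 0.10, adjusted p = 5.12e-05) and 0.67 (SE 0.07, adjusted p = 6.44e-07). ABA1 was not called against TUR light alone (0.19, adjusted p = 0.162), nor AAO3 against CYP dark alone (0.18, adjusted p = 0.182). The rate-limiting dioxygenase gene NCED6 (AA78G00012) averaged 10.8 CPM in CYP light, against 19.4 CPM in CYP dark, 2.73 CPM in TUR light and 11.9 CPM in TUR dark. NCED9 (AA31G00716), of the same family, averaged 4.12 CPM in CYP light, against 1.88 CPM in CYP dark, 6.51 CPM in TUR light and 2.29 CPM in TUR dark. Neither was called (adjusted p = 0.153 and 0.0568), but both passed the threshold without certain libraries, NCED6 without TUR light replicate 1 (0.51, adjusted p = 0.0155) or CYP dark replicate 3 (0.40, adjusted p = 0.0294). NCED9 passed without TUR dark replicate 3 (0.48), TUR light replicate 3 (0.48), CYP dark replicate 1 (0.53) or CYP light replicate 2 (0.62), at adjusted p of 0.0463, 0.0487, 0.0292 and 0.0125.

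The ABA 8'-hydroxylases, which break the hormone down, had 3 models tested of 5 in the table, and these 3 were state genes that did not move one way. CYP707A2 (AA32G00787) had 86.6, 91.7 and 81.9 CPM in CYP light, against 33, 39.1 and 31.1 CPM in CYP dark, 71.5, 62.2 and 81.1 CPM in TUR light and 38.2, 40.9 and 32.3 CPM in TUR dark. Both light groups were high, the lowest CYP light library was 1.01-fold the highest TUR light library, and the difference from TUR light alone was not called (0.27, adjusted p = 0.0501). Of 2 models matching CYP707A3, AA57G00196 was higher, at 0.99 (SE 0.16, adjusted p = 5.84e-05), but was not called on the deposited RPKM (0.14, adjusted p = 0.317). AA6G00060 was lower, with 9.36 ± 0.185 CPM in CYP light, against 17.8 ± 1.00 CPM in CYP dark, 29.9 ± 1.08 CPM in TUR light and 42.3 ± 1.99 CPM in TUR dark (SD, n = 3 each), a log2 fold change of -1.59 (SE 0.09, adjusted p = 8.29e-11).

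ABA signalling genes were divided, with 9 of 26 called higher and 9 lower (34.6% each, median -0.09), 4 and 6 as state genes (15.4% and 23.1%). PYL4 (AA805G00002), an ABA receptor, had 8.19, 10.01 and 7.46 CPM in CYP light, against 28.6, 35.6 and 38.4 CPM in CYP dark, 57.6, 73.5 and 53.5 CPM in TUR light and 99.8, 106 and 104 CPM in TUR dark. CYP light was lowest throughout, by 2.86-fold at the nearest point, and the log2 fold change was -2.81 (SE 0.13, adjusted p = 6.28e-12), with -2.00 (adjusted p = 1.63e-08) against CYP dark, -2.85 (2.16e-11) against TUR light and -3.60 (4.87e-13) against TUR dark. PYL6 (AA29G00245), PYL8 (AA11G00152) and the PYR1 model AA56G00008 had log2 fold changes of -2.09, -1.84 and -2.24. PYL6 was low in both CYP groups, with -0.81 against CYP dark, -2.40 against TUR light and -3.05 against TUR dark. Receptors called higher were PYL11 (AA6G00016) and a model of PYL9 (AA1G00061), no state genes and named after their values were seen, at 3.66 and 1.26. PYL11 averaged 128 CPM in CYP light, against 4.41 CPM in CYP dark, 141 CPM in TUR light and 1.62 CPM in TUR dark. The PYL9 model averaged 10.3 CPM in CYP light, against 12.6 CPM in CYP dark, 2.12 CPM in TUR light and 2.89 CPM in TUR dark. The 4 state genes of the list that were higher, named after their values were seen, were the phosphatase genes AHG1 (AA55G00068), AHG3 (AA52G00006) and HAI3 (AA32G00752) and the bZIP factor ABF1 (AA2G00098), at 0.42, 0.49, 0.65 and 0.74. When a call against each other group was required, 3 of these 4 were left. ABI4 (AA29G00257), a factor of the ABA response also named after its values were seen, was lower, averaging 130.1 CPM in CYP light, against 229 CPM in CYP dark, 468 CPM in TUR light and 489.8 CPM in TUR dark. The seed regulators ABI3 (AA109G00007) and ABI5 (AA60G00170) were not called, at -0.13 (SE 0.08, adjusted p = 0.171) and 0.15 (SE 0.12, adjusted p = 0.31).

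Genes of the desiccation and reserve programme were higher in CYP light. Of 8 ABA and desiccation response genes, 7 were called higher and 1 lower (median 1.19), 5 and 0 as state genes. RD29B (AA55G00020), an ABA-induced protective protein, had 632, 650.1 and 638 CPM in CYP light, against 261, 260.2 and 298 CPM in CYP dark, 369, 305 and 379 CPM in TUR light and 281, 264 and 305 CPM in TUR dark. The 3 CYP light libraries were close together and above all others. Its log2 fold change was 1.09 (SE 0.08, adjusted p = 1.62e-09), with 1.23 (adjusted p = 5.34e-08) against CYP dark, 0.87 (1.03e-06) against TUR light and 1.18 (1.48e-08) against TUR dark. HVA22B (AA5G00066), the LEA protein EM6 (AA29G00261) and the peroxiredoxin PER1 (AA18G00217), all of maturing seeds, had log2 fold changes of 1.30 (SE 0.12, adjusted p = 4.85e-08), 1.39 (SE 0.15, adjusted p = 3.17e-07) and 1.46 (SE 0.11, adjusted p = 3.6e-09). PER1 was high in both CYP groups, averaging 755 CPM in CYP light, against 551 CPM in CYP dark, 193 CPM in TUR light and 196 CPM in TUR dark. RD22 (AA12G00097), the gene called lower, had means of 0.267 CPM in CYP light, against 0.431 CPM in CYP dark, 11.2 CPM in TUR light and 1.25 CPM in TUR dark, and was named after its values were seen. In the wider family of 40 late embryogenesis abundant genes, 15 were called higher and 13 lower (median 0.09).

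Of 11 storage protein and oil body genes, 8 were called higher and 1 lower (median 0.99), 6 and 0 as state genes. The oleosin OLEO2 (AA87G00124), a coat protein of oil bodies, had 3194, 3194 and 3062 CPM in CYP light, against 1656, 1292 and 1177 CPM in CYP dark, 1994, 1018 and 1727 CPM in TUR light and 1012, 776 and 1057 CPM in TUR dark. The CYP light libraries lay above all others, TUR light replicate 1 being nearest, and the log2 fold change was 1.31 (SE 0.14, adjusted p = 3.78e-07). OLEO1 (AA131G00012) and the caleosin CLO1 (AA10G00436) had 1.12 (SE 0.15, adjusted p = 4.15e-06) and 1.20 (SE 0.13, adjusted p = 2.99e-07). The storage albumin SESA5 (AA25G00010) had 2937, 3223 and 2639 CPM in CYP light, against 2318, 2312 and 1982 CPM in CYP dark, 62.2, 38.1 and 51.7 CPM in TUR light and 86.9, 23.6 and 55.1 CPM in TUR dark. Both CYP groups were high and both TUR groups low, and the difference from CYP dark alone was not called (0.41, adjusted p = 0.277). Its log2 fold change of 3.99 against the mean of the groups was not called when the 9 other libraries were fitted as 1 group (1.93, adjusted p = 0.272).

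Of 19 genes of oil reserve breakdown, 8 were called higher (42.1%) and 3 lower (15.8%), with a median of 0.17. State genes were 2, both higher, a share of 10.5% near the 8.37% over all genes tested. They were the lipase SDP1 (AA19G00193) at 0.39 (SE 0.07, adjusted p = 0.000189) and the beta-oxidation enzyme AIM1 (AA102G00061) at 0.82 (SE 0.07, adjusted p = 3.07e-08). SDP1 was not called against CYP dark alone (0.20, adjusted p = 0.114). Isocitrate lyase, ICL (AA26G00814), which feeds carbon from oil into sugar synthesis, averaged 6155 CPM in CYP light, against 9066 CPM in CYP dark, 5210 CPM in TUR light and 8226 CPM in TUR dark. Its log2 fold change was -0.25 (SE 0.09, adjusted p = 0.0256), and the call was lost when any 1 of 4 libraries was left out, TUR dark replicate 2 (-0.22), TUR light replicate 1 (-0.20), CYP light replicate 1 (-0.25) or CYP light replicate 2 (-0.17), and with the 9 other libraries as 1 group (adjusted p = 0.327).

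Genes of flavonoid synthesis and of the phenylpropanoid step before it made up 8 of the 12 largest named rises, and in 7 of those 8 TUR light was the nearest group. Of the 14 genes of the flavonoid synthesis list that were tested, 13 were called higher and 0 lower in edgeR's test (0 lower at an unadjusted p under 0.05 and 0 in DESeq2), 11 of them as state genes, with a median log2 fold change of 3.22. When the 9 other libraries were fitted as 1 group, only 2 genes of the list were called higher (median 1.78), with 2 state genes. Dihydroflavonol reductase DFR (AA3G00224) had 659.6, 603 and 611 CPM in CYP light, against 25.4, 20.6 and 21 CPM in CYP dark, 489.8, 568 and 414 CPM in TUR light and 9.84, 7.54 and 8.68 CPM in TUR dark. Both light groups were high and both dark groups low, and the lowest CYP light library was 1.06-fold the highest TUR light library. The log2 fold change of 3.77 was made up of 4.80 (adjusted p = 2.3e-14) against CYP dark, 0.35 (0.0156) against TUR light and 6.16 (3.38e-16) against TUR dark. Against TUR light the log2 fold changes were also below 1 in LDOX (AA57G00487, 0.60), F3'H (AA44G00065, 0.57), a chalcone isomerase family gene (AA35G00019, 0.40) and a flavonoid glucosyltransferase (AA11G00065, 0.79), and in the transport protein TT19 (AA40G00386, 0.95), and 1.03 in phenylalanine ammonia lyase PAL1 (AA60G00079). With the 9 other libraries fitted as 1 group none of these 7 genes was called, the adjusted p running from 0.0777 in PAL1 to 0.267 in DFR.

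Flavanone 3-hydroxylase, F3H (AA13G00009), of the middle of the pathway, was the exception among the named flavonoid genes. It had 4324, 4374 and 4851 CPM in CYP light, against 1439, 1208 and 1932 CPM in CYP dark, 484, 537 and 586 CPM in TUR light and 51.7, 43.8 and 33.8 CPM in TUR dark. CYP dark, not TUR light, came nearest, and the lowest CYP light library was 2.24-fold the highest CYP dark library. The log2 fold change was 3.78 (SE 0.11, adjusted p = 6.18e-15), with 1.56 (adjusted p = 5.56e-07) against CYP dark, 3.08 (4.23e-11) against TUR light and 6.71 (4.17e-15) against TUR dark.

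In the light signalling genes HY5 and BBX24 and the clock gene PRR9, all higher in CYP light, TUR light was the nearest group. Of 26 light signalling genes, 12 were called higher and 7 lower (median 0.15), 3 and 3 as state genes. With limma on the deposited RPKM, 6 were called higher and 13 lower (median -0.39). With the 9 other libraries as 1 group, 2 were called higher and 4 lower. HY5 (AA44G00380), a bZIP factor that promotes light responses, averaged 47.2 ± 3.21 CPM in CYP light, against 10.6 ± 4.25 CPM in CYP dark, 33.9 ± 6.39 CPM in TUR light and 5.96 ± 1.04 CPM in TUR dark (SD, n = 3 each), with 2.12 against CYP dark, 0.47 against TUR light and 2.98 against TUR dark. BBX24 (AA114G00006), a B-box factor, had 2.38 against CYP dark, 0.34 against TUR light and 3.79 against TUR dark. The photoreceptor PHYB (AA26G00394) and the phytochrome-interacting factor PIF3 (AA42G00002) were lower, at -0.66 (SE 0.09, adjusted p = 5.44e-06) and -1.20 (SE 0.11, adjusted p = 3.07e-08). PHYB had -0.39 against TUR light, its nearest group, and its light over dark value within TUR was -0.40. PIF3 was nearest to CYP dark, with -0.44 against CYP dark, -1.55 against TUR light and -1.61 against TUR dark. Among 18 clock genes 12 were called higher and 2 lower (median 0.49), 4 and 1 as state genes, and on the deposited RPKM 5 were called higher and 8 lower (median -0.09). PRR9 (AA21G00407), a clock repressor, had 14.1, 12.7 and 11.7 CPM in CYP light, against 0.499, 0.239 and 0.152 CPM in CYP dark, 8.39, 4.61 and 9.06 CPM in TUR light and 0.307, 0.566 and 0.31 CPM in TUR dark. It was near 0 in both dark groups. ELF4 (AA29G00273) and LNK1 (AA4G00149) were higher, at 1.65 (SE 0.16, adjusted p = 1.4e-07) and 1.45 (SE 0.12, adjusted p = 1.38e-08), and CCA1 (AA21G00411) was lower, at -1.07 (SE 0.11, adjusted p = 3.41e-07). For ELF4, LNK1 and CCA1 too TUR light was the nearest group, at 0.77, 0.45 and -0.47. Their log2 fold changes of light over dark within TUR were 1.89, 1.93 and -1.03. HY5, BBX24 and PRR9 were not called with the 9 other libraries as 1 group (adjusted p = 0.0673, 0.134 and 0.0898). Photosynthetic genes were near the background, 6 of 21 called higher and 6 lower (median 0.08).

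Of 14 heat stress genes, 10 were called higher and 1 lower (median 0.82), 4 and 0 as state genes. With limma on the deposited RPKM, 3 were called higher and 5 lower (median 0.05), with 0 state genes higher. The 4 state genes were galactinol synthase GOLS1 (AA21G00444), the chaperones HSP70B (AA37G00145) and HSP22 (AA3G00115), and the seed heat shock factor HSFA9 (AA65G00102), with log2 fold changes of 1.53 (SE 0.17, adjusted p = 7.6e-07), 1.27 (SE 0.13, adjusted p = 1.52e-07), 0.95 (SE 0.11, adjusted p = 1.36e-06) and 0.85 (SE 0.12, adjusted p = 7.36e-06). HSP22 and HSFA9 were not called on the deposited RPKM (0.15, adjusted p = 0.17, and 0.13, adjusted p = 0.307). The heat shock family at large was near the background, 16 of 56 higher and 18 lower. Of 12 ethylene genes 1 was called higher (8.3%) and 4 lower (33.3%), with a median of -0.07. The receptor ERS2 (AA19G00119) was higher and the ACC oxidase ACO1 (AA33G00241), which makes ethylene, was lower. ERS2 had 6.68, 6.33 and 5.99 CPM in CYP light, against 1.8, 1.31 and 1.67 CPM in CYP dark, 2.32, 2.49 and 1.28 CPM in TUR light and 0.999, 0.377 and 0.465 CPM in TUR dark. ACO1 averaged 0.963 ± 0.319 CPM in CYP light, against 1.98 ± 0.301 CPM in CYP dark, 7.16 ± 1.83 CPM in TUR light and 16.2 ± 2.91 CPM in TUR dark (SD, n = 3 each), with -1.03 (adjusted p = 0.045) against CYP dark, -2.84 (1.27e-07) against TUR light and -4.04 (2.07e-10) against TUR dark. ACO4 (AA19G00046) had -1.60 (SE 0.30, adjusted p = 0.000208), and its difference from CYP dark alone was not called (adjusted p = 0.105).

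Auxin genes were mostly lower. Of 16 tested, 10 were called lower (62.5%) and 2 higher (12.5%), with a median of -0.54. State genes of the list were 5 lower (31.25%) and 1 higher (6.25%). The auxin repressor IAA14 (AA87G00261) averaged 2.66 ± 0.587 CPM in CYP light, against 7.43 ± 2.73 CPM in CYP dark, 12.3 ± 2.34 CPM in TUR light and 21.1 ± 0.374 CPM in TUR dark (SD, n = 3 each). The carriers AUX1 (AA342G00006) and PIN3 (AA38G00012) had -0.54 (SE 0.08, adjusted p = 1.18e-05) and -0.55 (SE 0.12, adjusted p = 0.000845). PIN3 was not called against TUR light alone (-0.22, adjusted p = 0.205). IAA17 (AA32G00414) had 3 reads in all CYP light libraries, against 9 in CYP dark, 321 in TUR light and 37 in TUR dark. Relative to CYP light, CYP dark stood at 4.47-fold (95% interval 1.12 to 25.7), TUR light at 123-fold (41.6 to 597) and TUR dark at 13.2-fold (4.17 to 66.8). These intervals are exact binomial ones and cover counting error only. In edgeR's test IAA17 was not called against CYP dark alone (adjusted p = 0.0712). An F-box gene (AA25G00140), the largest fitted rise among the named genes, likewise was near the floor in TUR seeds, with 410 reads in CYP light, 99 in CYP dark, 2 in TUR light and 0 in TUR dark. CYP light stood at 2.78-fold CYP dark (2.23 to 3.5), 179-fold TUR light (49.2 to 1480) and at least 128-fold TUR dark, where 3 counts over the group were taken as the floor.

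Families were also counted whole, beside shares over all genes tested of 25.5% called higher and 26.1% lower. Leucine-rich repeat kinases, which include many receptors at the cell surface, had 72 of 125 genes called lower and 13 higher (median -0.43). Lipid-transfer proteins had 16 of 29 lower and 6 higher (median -0.62), and subtilases and other proteases 40 of 79 lower and 14 higher (median -0.39). Ribosomal proteins had 86 of 285 lower (30.2%) and 36 higher (12.6%), with a median of -0.12. Pentatricopeptide proteins of organelle RNA had 25 of 223 lower (11.2%) and 40 higher (17.9%), with a median of 0.08. F-box proteins had 20 of 95 lower (21.05%) and 32 higher (33.7%), with a median of 0.10. Cytochrome P450, UDP-glycosyltransferase, aquaporin and sugar transporter families had 24.8 to 31.2% of their members higher and 30.0 to 35.4% lower. Among transcription factors, 5 of 31 WRKY genes were called higher (16.1%) and 12 lower (38.7%). In the NAC family 6 of 40 were higher (15%) and 13 lower (32.5%), and of 71 bHLH genes 9 were higher (12.7%) and 25 lower (35.2%). AP2/ERF genes were near the background, with 13 of 52 higher (25%) and 15 lower (28.85%). Of 45 MYB genes, 15 were higher (33.3%) and 9 lower (20%).

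**Figure D4:**
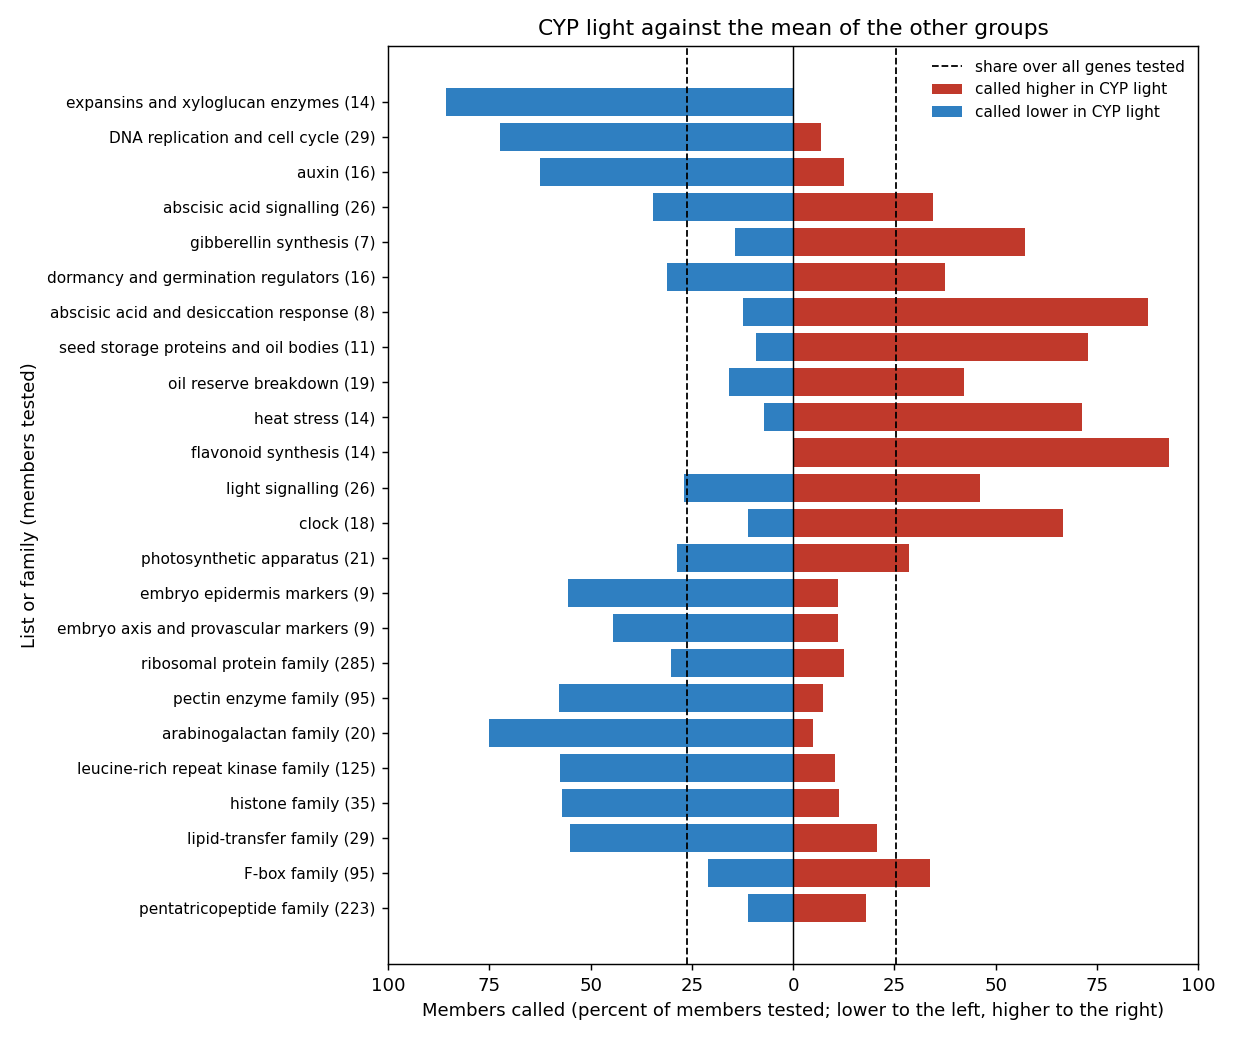
Share of the tested members of 24 lists and families called lower (bars to the left) or higher (bars to the right) in CYP light against the mean of the other groups, with the number tested in brackets. Dashed lines mark the shares over all genes, 26.1% lower and 25.5% higher; wall, replication and receptor kinase genes pass the left line, and flavonoid, desiccation and reserve genes the right one.

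Markers of seed tissues were counted as well. Over all genes tested, 26.1% were called lower and 25.5% higher, and each marker list held only 2 to 9 tested genes. Of 9 embryo epidermis markers tested, 5 were called lower (55.6%) and 1 higher (11.1%). Their summed level was 228.9 to 242.0 CPM in CYP light, against 344.9 to 392.1 CPM in CYP dark, 408.0 to 504.7 CPM in TUR light and 364.3 to 423.8 CPM in TUR dark. FDH and PDF1, described next, carried most of the difference from each other group, so the sum does not describe the list as a whole. FDH (AA32G01045), a fatty acid elongase of the epidermis, had 58.5, 59 and 64.5 CPM in CYP light, against 153, 128 and 141 CPM in CYP dark, 236, 268 and 205 CPM in TUR light and 188, 179 and 168 CPM in TUR dark, a log2 fold change of -1.58 (SE 0.10, adjusted p = 1.81e-10). PDF1 (AA21G00071), a protein of the outer cell layer, averaged 9.09 ± 0.47 CPM in CYP light, against 57.8 ± 17.7 CPM in CYP dark, 18.1 ± 0.865 CPM in TUR light and 50.4 ± 14.6 CPM in TUR dark (SD, n = 3 each). The wax elongase CER6 (AA39G00688) had -3.35 (SE 0.31, adjusted p = 6.31e-08), while the epidermal regulator ATML1 (AA57G00375), named after its values were seen, was not called (0.07, adjusted p = 0.464). PDF2 (AA6G00252) was not called against TUR light (-0.16, adjusted p = 0.167) or TUR dark (-0.20, adjusted p = 0.0739) alone, and lost its call without CYP light replicate 2 (-0.18, adjusted p = 0.102). The other CER6 model (AA36G00032), both ACR4 models and HDG11 (AA31G00615) were no state genes. HDG11, named after its values were seen, had 1032 reads in CYP light, against 625 in CYP dark, 802 in TUR light and 612 in TUR dark (not scaled to library size).

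Among 9 embryo axis and provascular markers, 4 were called lower (44.4%) and 1 higher (11.1%). Their summed level was 94.8 to 105.8 CPM in CYP light, against 117.4 to 153.6 CPM in CYP dark, 109.2 to 115.9 CPM in TUR light and 109.0 to 128.1 CPM in TUR dark. The regulators of root patterning SHR (AA30G00276) and SCR (AA166G00013) and the vascular factor ATHB8 (AA651G00001) were state genes, at -1.59 (SE 0.27, adjusted p = 7.79e-05), -0.70 (SE 0.12, adjusted p = 8.75e-05) and -1.15 (SE 0.13, adjusted p = 1.14e-06). PLT1, PLT2, TMO5, MP, STM and CUC2, the rest of the tested list, were no state genes. MP (AA39G00248), named after its values were seen, had 1955 reads in CYP light, against 1245 in CYP dark, 1292 in TUR light and 1136 in TUR dark. These reads are not scaled to library size. The tested endosperm markers were 2, CYP707A2 and NCED6, with a summed level of 93.6 to 102.3 CPM in CYP light, against 48.3 to 57.1 CPM in CYP dark, 63.9 to 83.2 CPM in TUR light and 42.8 to 53.5 CPM in TUR dark. The endosperm regulator ZOU had 0 reads in all 12 libraries. Of the seed coat markers 3 were tested, 1 higher and 2 lower, summing to 30.0 to 33.0 CPM in CYP light, against 24.9 to 35.9 CPM in CYP dark, 38.1 to 53.7 CPM in TUR light and 40.5 to 50.8 CPM in TUR dark. MUM4 (AA15G00120) and AP2 (AA30G00232) were lower, at -1.19 (SE 0.15, adjusted p = 1.95e-06) and -2.39 (SE 0.51, adjusted p = 0.000667). AP2 was near the floor, with 9 reads in all of CYP light, against 30 in CYP dark, 35 in TUR light and 66 in TUR dark. The marker called higher, TTG2 (AA60G00054), was no state gene and was named after its values were seen. It had 695 reads in CYP light, against 156 in CYP dark, 573 in TUR light and 301 in TUR dark (not scaled to library size). TT16 and STK had 0 reads in all libraries. The part of these tissue markers in the falls of the wall, epidermis and replication genes was not tested.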

How the data were processed

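RNA-seq of 12 seed libraries was used. The authors deposited, per the file headers, a raw read count and an RPKM value of each library for 23594 gene models, with model lengths and, for 21079 models, a TAIR10 match. Per the submitters' processing notes, tools included HTSeq 0.6.1, Bowtie2 2.2.3, Trimmomatic and bcl2fastq 2.17.1. The sources used here give neither the genome release behind the models nor the strand setting of the counting, so reads of overlapping or antisense genes cannot be told apart. The deposited RPKM equals count over length and total in CYP libraries but not in TUR libraries (5th to 95th percentile of the log2 ratio to RPKM made from the counts down to -0.58 and up to 1.51), so the counts were tested.

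Genes with at least 1 CPM in at least 3 libraries were fitted with edgeR 4.0.16 (R 4.3.3, TMM scaling, quasi-likelihood test, 4 group means on all 12 libraries), with Benjamini-Hochberg adjustment over 15671 genes. The contrast was CYP light minus the mean of the other groups. Alternatives used limma 3.58.1, DESeq2 1.42.0, other scalings, filters and left-out libraries. The procedure was tested on simulated counts in which the groups shared the same means except for genes changed in CYP light. With no accession or light effects among the other groups, that test cannot show how the contrast or the state rule behaves with them.

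State genes were chosen by the same values that describe them, and the lack of overlap adds no test. Named genes are the 12 largest rises and 12 largest falls among state genes with an Arabidopsis match whose description names a function and a mean of at least 10 CPM (in CYP light for rises, over the other groups for falls), up to 4 state genes of each list by size of change, and all models of 24 key genes (GA20ox3 was too low to test and GASA6 has no model here). The 25 lists hold 367 loci, of which 261 have a tested model, and 28 families were taken by words in the descriptions. The members, lists and key genes were chosen with earlier results of these data known.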

Additional observations from a re-analysis of the deposited data

Results flagged for a closer look

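The light response of each key gene was compared between accessions, as the log2 fold change of light over dark in CYP minus that in TUR, with edgeR's quasi-likelihood test in the same fit, adjusted over all 15671 genes (351 genes, 2.24%, called). For 3 gene models this difference was called. It was not called for the other key gene models tested, several of them state genes described at length above. These included GA2ox2 AA18G00108 (1.73, adjusted p = 0.382), DOG1 (1.19, adjusted p = 0.354) and MFT (0.48, adjusted p = 0.505). EXPA2 (-0.83, adjusted p = 0.225) and GASA4 (-0.86, adjusted p = 0.0582) were not called either. A missing call does not show equal light responses. GA3ox2 (AA31G00895) responded more in CYP, by 1.12 (SE 0.26, adjusted p = 0.0285). Its light response was 1.81 in CYP and 0.69 in TUR. GA3ox1 (AA37G00176) differed by -0.944 (SE 0.18, adjusted p = 0.00912), with -0.55 in CYP and 0.39 in TUR. The GA2ox2 model AA54G00411 differed by -1.95 (SE 0.34, adjusted p = 0.00418), with -1.77 in CYP and 0.17 in TUR, where the response was not called (adjusted p = 0.733). All of these values share the CYP light libraries with the comparisons above.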

How the results depend on the processing

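Counts stayed within 1.5 times of the values given above (4003 and 4085 called, 1311 and 1573 state genes) under the other scalings, filters, DESeq2 and limma on RPKM made from the counts. Without 1 library, 3485 to 4332 genes were called higher and 3391 to 4327 lower, with 1393 to 1731 and 1498 to 1910 state genes. Fitting the 9 other libraries as 1 group gave 1294 called higher and 2206 lower (63% lower, against 50.5%), with 1043 and 1469 of the state genes retained. Asking for a call against each other group gave 765 higher and 1179 lower (60.6% lower), with 737 and 1115 state genes. A 1.5-fold gap left 88 and 345. limma on the deposited RPKM, added after the data were seen, called 1758 higher and 11045 lower (86.3% lower) with a median log2 fold change of -0.511, and had 463 and 2362 state genes, 355 and 1402 of them shared. On this scale the sign turned for SDP1 AA19G00193 (-0.17), ICL AA26G00814 (1.46), AAO3 AA32G00943 (-0.11), ABA3 AA37G00095 (-0.26), ABA1 AA8G00025 (-0.10), NCED9 AA31G00716 (-0.46), NCED6 AA78G00012 (-0.50), SOM AA7G00098 (0.75) and GA2ox2 AA54G00411 (-0.13). Counts of calls also turned or tipped there to 3 higher and 19 lower in ABA signalling, 4 and 8 in dormancy and germination regulators and 3 and 10 in photosynthetic genes. AA54G00411 also turned with the 9 libraries as 1 group (-0.33). The cause of these turns was not tested. With a replicate block, 3924 genes were called higher and 3995 lower, with 1307 and 1568 state genes. Deviations from the group means correlated from -0.441 to 0.265 between same-numbered libraries of different groups (median 0.0115, 18 pairs). Between different-numbered ones they correlated from -0.264 to 0.361 (median -0.0305, 36 pairs). Libraries of the same number were thus not visibly more alike, but this cannot tell whether libraries shared a seed lot or batch. Of 105 named models, 33 changed direction or call under some setting.

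Depth limits genes near 1 CPM, since 3 counts stand for up to 0.423 CPM.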
